A study of Homo sapiens with 6 samples.

Results

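Blood coagulation factors and their plasma inhibitors were described in HepG2, a widely used line grown from a human liver tumor that still makes many plasma proteins. The 10 genes were F2, F5, F7, F10, F11, F13B, PROC, PROS1, SERPINC1 and SERPIND1, chosen by name out of 23368 distinct genes in the table, and each was found. In the shCHROME group (3 libraries, replicates a, b and c) the cells stably carried a lentiviral short hairpin RNA against all variants of CHROME, a long noncoding RNA. In the EV group (3 libraries, replicates a, b and c) they carried a non-targeting hairpin in the same vector. The virus for both groups was made in HEK293T, an embryonic kidney line, and all cells grew in the same serum-containing medium. A single hairpin was used against CHROME, in a single tumor line. The labels do not say whether the replicates were separate cultures, so the p-values measure only the spread between these libraries. CHROME itself is not analysed here, so the depletion was not checked.

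Coagulation is a cascade of proteases made mostly in the liver and secreted into plasma as inactive precursors. Factor VII with tissue factor activates factor X, which together with its cofactor, factor V, turns prothrombin into thrombin, and thrombin turns fibrinogen into fibrin. Inhibitors hold the cascade in check: antithrombin and heparin cofactor II block the proteases, and activated protein C with protein S destroys the cofactors. In these bulk libraries, fewer cells that make a transcript and less of it per cell cannot be told apart.

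In shCHROME cells, 3 of the 10 genes fell: F10 (factor X), SERPIND1 (heparin cofactor II) and PROS1 (protein S). F13B, which encodes the carrier subunit of factor XIII, rose 2.29-fold from a very low level. In 16 alternative settings, the PROS1 call was lost in 7 and the F13B call in 2. F2 (prothrombin), F11 (factor XI), PROC (protein C), SERPINC1 (antithrombin), F5 and F7 did not pass the test. A call here is an adjusted p under 0.05 in limma on log2(value + 1), adjusted over the 14598 genes tested, and all 10 genes were among those. Over all tested genes, 6.87% were called lower and 3.64% higher, 10.5% in either direction. The shCHROME and EV libraries did not overlap in 4 of the 10 genes, F10, SERPIND1 and PROS1 below and F13B above, against 28.0% of all tested genes in either direction. The median log2 fold change, shCHROME over EV, was -0.15 for the 10 genes, of which 8 were below zero, and 0.01 for all tested genes, of which 47.8% were below zero. The 8 include F2 and SERPINC1, each at -0.01, whose signs turned with upper quartile scaling and with library totals.

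The promoters of F10 and SERPIND1, the genes whose falls were called under every setting tried, are printed because they hold the same short sequence. Those of F7, the neighbour of F10 on chromosome 13, and of F13B, the gene that rose, are set beside them. Each runs from 250 bases before to 50 bases after the start site in RefSeq on GRCh38.p14, 5′ to 3′ on the strand of the gene. Capitals mark CAAAGT on either strand, the core of sites bound by HNF4A, a master regulator of hepatocyte genes. The F10 window is on the plus strand at chr13:113122549-113122848, the SERPIND1 window on the plus strand at chr22:20773863-20774162, the F7 window on the plus strand at chr13:113105541-113105840 and the F13B window on the minus strand at chr1:197067211-197067510.
F10: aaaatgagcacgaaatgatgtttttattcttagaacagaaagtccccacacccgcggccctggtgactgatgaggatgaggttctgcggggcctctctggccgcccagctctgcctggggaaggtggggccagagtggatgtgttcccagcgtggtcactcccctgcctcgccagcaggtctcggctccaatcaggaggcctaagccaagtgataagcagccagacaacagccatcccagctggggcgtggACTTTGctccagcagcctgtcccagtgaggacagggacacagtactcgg
SERPIND1: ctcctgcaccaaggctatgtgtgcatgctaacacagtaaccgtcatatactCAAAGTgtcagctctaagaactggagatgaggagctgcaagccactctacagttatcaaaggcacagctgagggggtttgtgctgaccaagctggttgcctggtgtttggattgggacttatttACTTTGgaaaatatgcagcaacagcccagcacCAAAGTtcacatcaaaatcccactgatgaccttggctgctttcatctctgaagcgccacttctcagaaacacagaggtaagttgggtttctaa
F7: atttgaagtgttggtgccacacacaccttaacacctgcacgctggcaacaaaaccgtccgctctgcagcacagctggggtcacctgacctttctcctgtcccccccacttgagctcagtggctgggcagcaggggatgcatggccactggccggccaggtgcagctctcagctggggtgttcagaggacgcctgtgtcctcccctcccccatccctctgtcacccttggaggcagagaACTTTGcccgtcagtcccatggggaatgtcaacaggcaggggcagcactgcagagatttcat
F13B: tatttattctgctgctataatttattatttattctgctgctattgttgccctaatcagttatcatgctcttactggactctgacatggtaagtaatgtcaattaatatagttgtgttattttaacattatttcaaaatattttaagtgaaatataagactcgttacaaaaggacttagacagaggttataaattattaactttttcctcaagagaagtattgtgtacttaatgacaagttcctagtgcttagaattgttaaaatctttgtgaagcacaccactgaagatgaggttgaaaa

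The core CAAAGT stood in the promoters of F7, F10 and SERPIND1, among 10 promoters listed for 9 of the 10 genes, and in 11.9% of 35116 promoters of the same length. The promoter of PROS1, which also fell, held no CAAAGT, and no promoter was listed for SERPINC1. SERPIND1 held 3 copies and F10 and F7 held 1 each. The longer form CAAAGTNCA, searched on both strands and containing the core, stood in F10 and SERPIND1 and in 1.1% of all promoters. TTGCNNAA, a C/EBP-type sequence, was found in PROC (10.5% of all), and TATAAA in F13B (11.5% of all). Of the 5 motifs searched, the remaining motif was GTTAAT, an HNF1-type sequence. GTTAAT stood in the promoters of F13B, which rose, and of PROC and F2, which were not called. As many of the listed promoters held GTTAAT as held CAAAGT, against 6.88% of all promoters for GTTAAT and 11.9% for CAAAGT. These matches are a description of letters in a window, and the motifs were chosen after the values of the genes were known.

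F10 encodes the protease at which the branches of the cascade meet. Its normalized counts were 3106, 3432 and 3191 in shCHROME libraries a, b and c, against 4617, 4770 and 4475 in EV libraries a, b and c. The groups did not overlap, and the gap between them was wider than the range of either. F10 averaged 3243 ± 170 normalized counts in shCHROME cells and 4620 ± 148 in EV cells (SD, n = 3 each). That was a fall by 0.51 on the log2 scale (SE 0.059), or 1.43-fold, with a 95% interval of 1.31-fold to 1.55-fold lower and a limma adjusted p of 1.92e-05. It was called in each of 16 alternative settings, with a largest adjusted p of 0.000547.

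**Figure D1:**
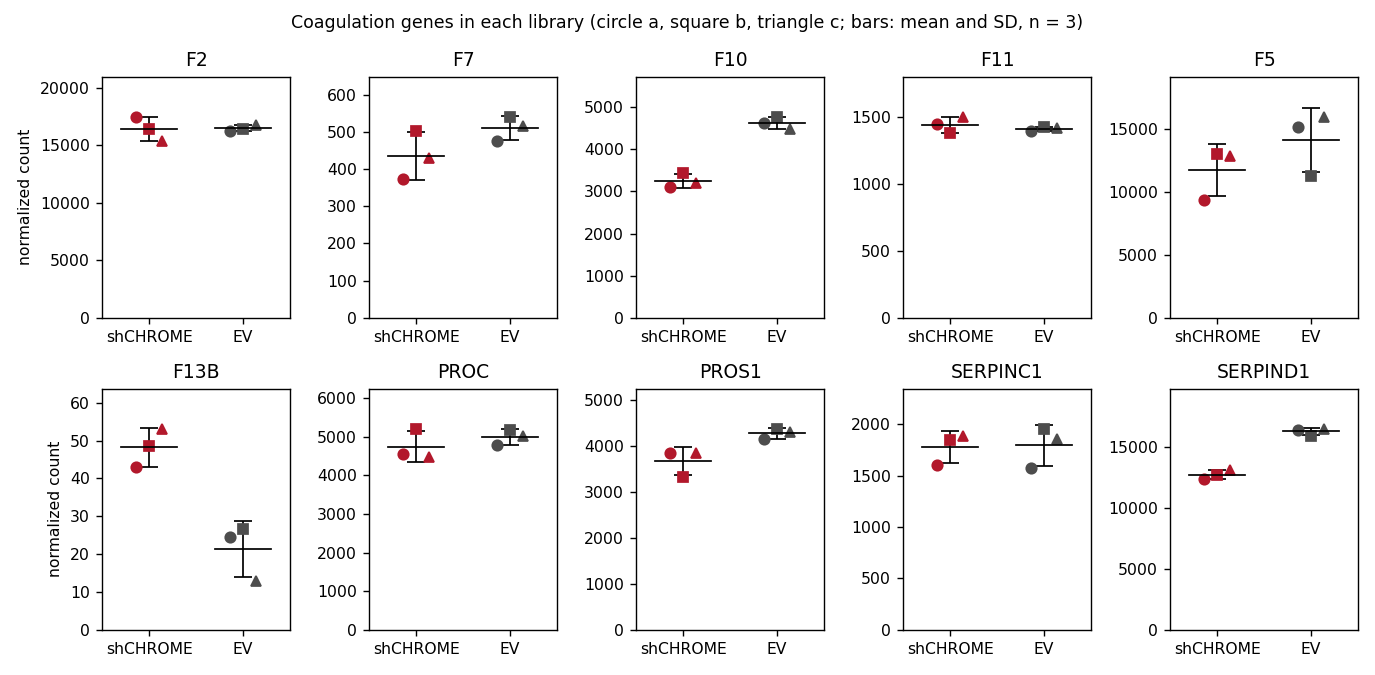
Normalized counts of the 10 coagulation genes in each library, shCHROME left (red) and EV right (grey), each panel starting at 0; circles, squares and triangles are replicates a, b and c, and bars are the mean and SD of 3 libraries. F10, SERPIND1 and PROS1 sit below EV in all 3 shCHROME libraries, F13B sits above it, and the other panels overlap.

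SERPIND1 encodes heparin cofactor II, an inhibitor of thrombin. It had 12373, 12662 and 13126 normalized counts in shCHROME libraries a, b and c, against 16406, 15914 and 16473 in EV libraries a, b and c. The highest shCHROME library lay below the lowest EV library, and replicates lay close together in both groups. SERPIND1 averaged 12720 ± 380 normalized counts in shCHROME cells and 16264 ± 305 in EV cells (SD, n = 3 each). The fall was 1.28-fold, with a 95% interval of the log2 fold change of -0.47 to -0.24 and a limma adjusted p of 0.000247, and it was called in each of the 16 alternative settings.

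PROS1 encodes protein S, the cofactor of activated protein C. Its normalized counts were 3857, 3327 and 3860 in shCHROME libraries a, b and c, against 4155, 4384 and 4320 in EV libraries a, b and c. The groups did not overlap, but shCHROME replicate b lay well below the other shCHROME libraries. PROS1 averaged 3681 ± 307 normalized counts in shCHROME cells and 4287 ± 118 in EV cells (SD, n = 3 each), a 1.17-fold fall with a limma adjusted p of 0.0331. The call was lost in 7 of 16 alternative settings. The adjusted p was 0.107 without shCHROME replicate b, 0.0536 without shCHROME replicate c, 0.0608 without EV replicate a, 0.1 without EV replicate b and 0.106 without EV replicate c. It was 0.0803 after scaling to library totals. PROS1 has a nearly identical pseudogene, so its reads may have been split by the authors' counting and its values are uncertain.

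F13B encodes the B subunit of factor XIII, which carries the crosslinking A subunit in plasma. It had 43.0, 48.6 and 53.2 normalized counts in shCHROME libraries a, b and c, against 24.5, 26.5 and 12.9 in EV libraries a, b and c. All shCHROME libraries lay above all EV libraries, and EV replicate c was the lowest. F13B averaged 48.2 ± 5.1 normalized counts in shCHROME cells and 21.3 ± 7.33 in EV cells (SD, n = 3 each), from 143 reads in shCHROME cells and 64 reads in EV cells. The rise was 2.29-fold, with a 95% interval of 1.5-fold to 3.52-fold and a limma adjusted p of 0.013. The log2 fold change was 0.89 without EV replicate c (limma adjusted p = 0.0641) and 1.13 without shCHROME replicate c (limma adjusted p = 0.0723), neither of which passed the threshold. F13A1, the gene of the A subunit, is listed at 0 reads in each library. A listed 0 does not show a silent gene here, since some genes that liver cells commonly express are also listed at 0.

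**Figure D2:**
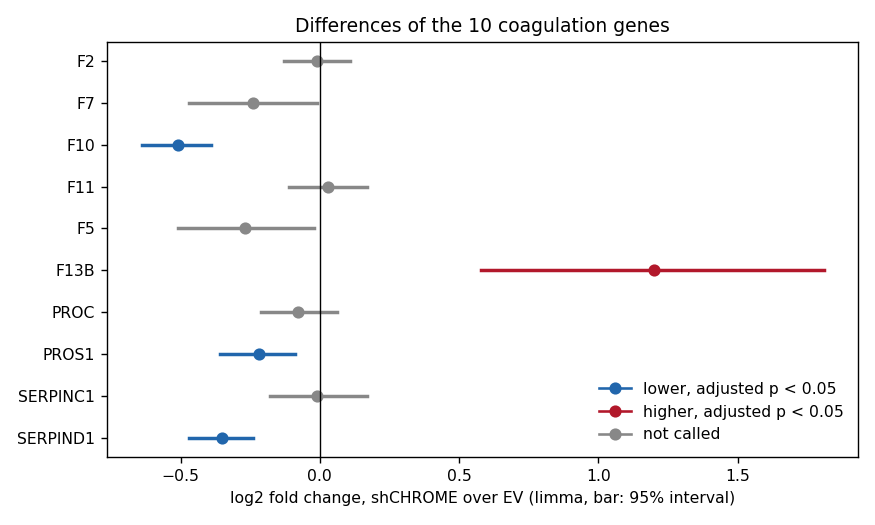
Log2 fold change of each of the 10 genes, shCHROME over EV, with the 95% interval of limma as a bar; blue is lower and red higher at an adjusted p under 0.05, and grey is not called. F10 lies furthest below zero at -0.51, and F13B lies at 1.2 with the widest interval.

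The other vitamin K-dependent proteases did not pass the test. F2, the precursor of thrombin, had 17484, 16387 and 15371 normalized counts in shCHROME libraries a, b and c, against 16285, 16420 and 16770 in EV libraries a, b and c. The shCHROME libraries spread on both sides of the EV libraries. The log2 fold change of F2 was -0.01, with a 95% interval of -0.13 to 0.11 and a limma adjusted p of 0.955, and its sign turned under other scalings. F7, which starts the cascade with tissue factor, had 373, 502 and 428 normalized counts in shCHROME libraries, against 475, 540 and 516 in EV libraries. The groups overlapped, since shCHROME replicate b lay above EV replicate a. Its log2 fold change was -0.24 (95% interval -0.47 to -0.01, limma adjusted p = 0.181). PROC, the precursor of activated protein C, had 4554, 5213 and 4485 normalized counts in shCHROME libraries, against 4790, 5187 and 5014 in EV libraries, and its log2 fold change of -0.08 (95% interval -0.21 to 0.06) had a limma adjusted p of 0.522.

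F5, the cofactor of factor X, had the highest coefficient of variation of the 10 genes in shCHROME cells, 17.8%, and in EV cells its 17.9% was exceeded by F13B alone, at 34.4%. It had 9341, 13025 and 12895 normalized counts in shCHROME libraries a, b and c, against 15180, 11244 and 15969 in EV libraries a, b and c. shCHROME replicate a and EV replicate b were the low libraries of their groups, and the groups overlapped. F5 averaged 11754 ± 2090 normalized counts in shCHROME cells and 14131 ± 2531 in EV cells (SD, n = 3 each), with a log2 fold change of -0.27 and a limma adjusted p of 0.166. Without EV replicate b the log2 fold change was -0.42 and passed the threshold (limma adjusted p = 0.00916), while it was -0.11 without shCHROME replicate a (limma adjusted p = 0.518) and -0.17 without EV replicate c (0.476).

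F11, a protease of the intrinsic branch, had 1443, 1374 and 1498 normalized counts in shCHROME libraries, against 1393, 1421 and 1412 in EV libraries. The EV libraries lay inside the range of the shCHROME libraries, and the log2 fold change was 0.03 (95% interval -0.11 to 0.17, limma adjusted p = 0.846). SERPINC1 encodes antithrombin, the main plasma inhibitor of thrombin and factor X. It had 1605, 1851 and 1888 normalized counts in shCHROME libraries a, b and c, against 1572, 1957 and 1859 in EV libraries a, b and c. Replicate a was the lowest in both groups. The log2 fold change of SERPINC1 was -0.01 (95% interval -0.18 to 0.17, limma adjusted p = 0.968), so a fall of the size seen in SERPIND1 lies outside its interval, and its sign turned under other scalings.

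Ratios within a library do not depend on how libraries were scaled. The ratio of F10 to F2 normalized counts ran from 0.178 to 0.209 in shCHROME libraries and from 0.267 to 0.29 in EV libraries. SERPIND1 over SERPINC1, the ratio of the inhibitors, ran from 6.84 to 7.71 in shCHROME libraries and from 8.13 to 10.4 in EV libraries. F10 over F7, neighbours on the chromosome, ran from 6.83 to 8.33 in shCHROME libraries and from 8.68 to 9.72 in EV libraries. None of these 3 ratios overlapped between the groups, and PROS1 over PROC did, at 0.638 to 0.861 in shCHROME libraries and 0.845 to 0.868 in EV libraries. The ratios were picked after the values were seen and were not tested.

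Divided by exon length, the 10 genes kept the same order in both groups. F2 was highest, at 6437 ± 414 normalized counts per kb in shCHROME cells and 6467 ± 98.1 in EV cells (SD, n = 3 each). SERPIND1 followed at 4983 ± 149 per kb in shCHROME cells and 6371 ± 120 in EV cells, and its EV libraries overlapped with those of F2 while its shCHROME libraries lay below them. PROC, F5 and F10 came next, with 1904 to 1377 per kb in shCHROME cells and 2003 to 1961 per kb in EV cells, and neighbours in that order overlapped in both groups. SERPINC1, PROS1, F11, F7 and F13B followed without overlap between neighbours. F13B was lowest, at 16.6 ± 1.76 normalized counts per kb in shCHROME cells and 7.35 ± 2.53 in EV cells. The exon lengths came from an annotation of another genome build than that used by the authors, so levels per kb are approximate.

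**Figure D3:**
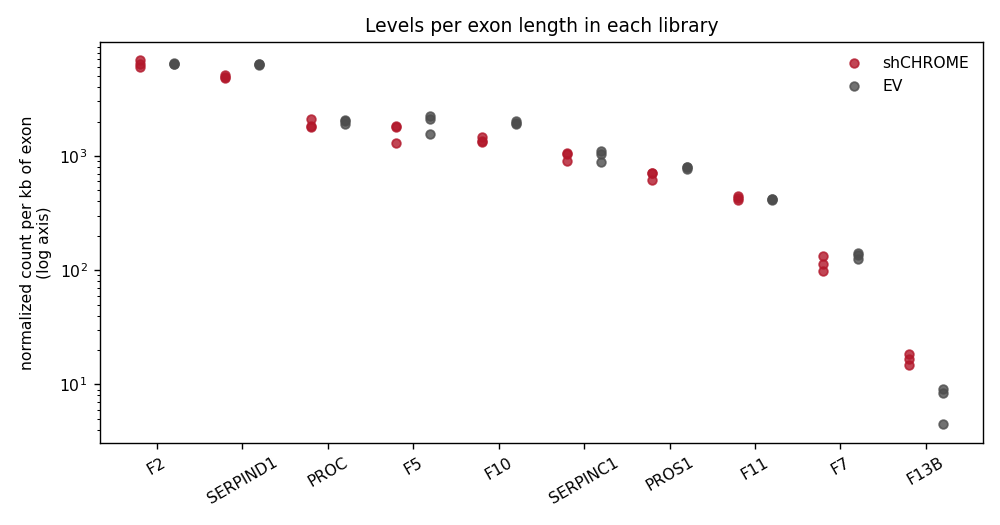
Normalized counts per kb of exon on a log axis for each library, shCHROME left (red) and EV right (grey), genes in falling order. Mean levels run from 6437 per kb for F2 to 16.6 per kb for F13B in shCHROME cells and from 6467 per kb for F2 to 7.35 per kb for F13B in EV cells, and the order of the means is the same in both groups.

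Summed over the 10 genes, coagulation transcripts came to 1710 to 1865 CPM in shCHROME libraries and 1910 to 2065 CPM in EV libraries, ranges that did not overlap. F2, SERPIND1 and F5 made up most of each sum. SERPIND1 gave 21.9% to 23.1% of it in shCHROME libraries and 24.7% to 25.7% in EV libraries, while F2 gave 27.1% to 32.3% in shCHROME libraries and 25.1% to 26.5% in EV libraries.

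In the authors' deposited table, which holds their own fit, F10 (adjusted p = 1.09e-11), SERPIND1 (4.27e-09) and F13B (0.0082) were called, against 9.04% of 14759 genes with an adjusted p there. PROS1 was not called in the authors' deposited table (adjusted p = 0.0549). The log2 fold change of F13B was 0.43 in the authors' deposited table, against 1.18 with DESeq2 on the recovered reads. F5 was at -0.14 there against -0.265, and F10 at -0.48 against -0.51. The deposited fold changes may not be the same measure as those here, and the cause of the differences was not tested. The deposited mean there was not taken over these 6 libraries alone, so whether its fold changes and p-values rest on these libraries alone is not known.

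**Figure D4:**
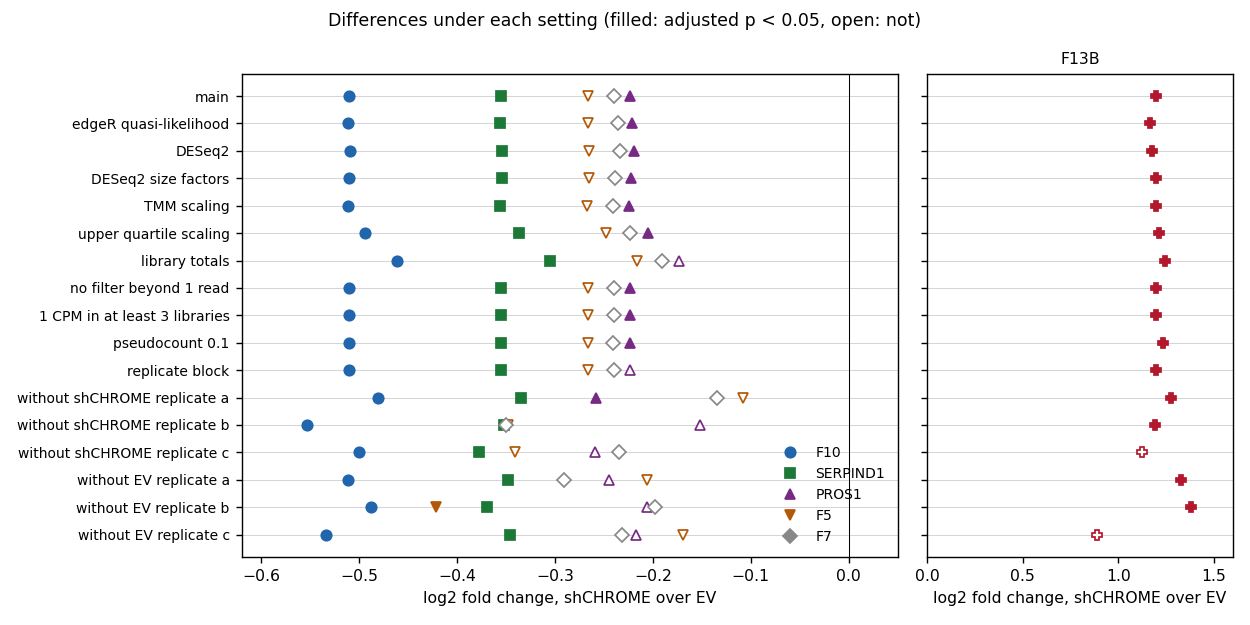
Log2 fold change, shCHROME over EV, of 6 of the genes under the main setting and each of 16 alternatives; filled symbols have an adjusted p under 0.05 and open ones do not. F10 and SERPIND1 are filled in every row, PROS1 is open in 7 alternatives and F13B in 2 (without shCHROME replicate c or EV replicate c), and F5 is filled only without EV replicate b.

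Published work ties CHROME to 4 microRNAs, miR-33a, miR-33b, miR-27b and miR-128, which act on genes of cholesterol efflux. Their mature sequences from RefSeq are printed with the seed (bases 2 to 8) in capitals. miR-33a and miR-33b share a seed.
hsa-miR-33a-5p: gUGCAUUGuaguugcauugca
hsa-miR-33b-5p: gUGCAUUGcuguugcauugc
hsa-miR-27b-3p: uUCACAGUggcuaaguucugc
hsa-miR-128-3p: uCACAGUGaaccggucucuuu
Seed matches (7 bases complementary to bases 2 to 8) were sought in the longest annotated 3′ untranslated region of each gene. They are shown in capitals for the genes that held any.
F7 site A: acacacacgcCAATGCAcacacacaga
F7 site B: acgcacatgcCAATGCAcgcacacatc
F10 site: gacaacggggACTGTGAccagttctgc

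F7 held 2 matches to miR-33a and miR-33b, at bases 467 to 473 and 613 to 619 of a region of 1673 bases, both within a CA-rich repeat. F10 held 1 match to miR-27b, at bases 363 to 369 of 800. The other 8 of the 10 genes held none for the 4 microRNAs, and F7 and F10 make up 2 of 10, against 38.4% of 12123 tested genes with such a region. The regions of the 10 genes ran from 85 bases in SERPINC1 to 1673 in F7, against a median of 1610 bases over tested genes. Of the genes that fell, F10 had 1 match and SERPIND1 and PROS1 had none, and F7, with 2 matches, was not called. Any part of these microRNAs in the results was not tested.

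Among the other contact and intrinsic factors, KNG1, which encodes kininogen, the cofactor of contact activation, was the only gene called lower of 5 tested, and none was called higher (median log2 fold change -0.34). KNG1 had 91.5, 124 and 109 normalized counts in shCHROME libraries a, b and c, against 326, 344 and 367 in EV libraries a, b and c, a 3.19-fold fall with a limma adjusted p of 4.01e-07. F9 (factor IX) is listed at 0 reads in each library, and F8 (factor VIII) had 11 reads in shCHROME cells and 11 in EV cells, so neither was tested. APOC2 and IRS2, which liver cells commonly express, are also listed at 0 in each library, so a value of 0 here does not show a silent gene.

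In the tissue factor pathway and the thrombin receptors, 1 of 6 tested genes rose and none was called lower (median 0.14). F2RL1, a receptor of coagulation proteases, had 935, 814 and 881 normalized counts in shCHROME libraries, against 759, 660 and 589 in EV libraries, a 1.31-fold rise (limma adjusted p = 0.0115). The call was lost without shCHROME replicate c (limma adjusted p = 0.0542) and without EV replicate c (0.0775). TFPI, the inhibitor of the tissue factor complex, averaged 13494 ± 659 normalized counts in shCHROME cells and 14856 ± 824 in EV cells (SD, n = 3 each) and was not called (limma adjusted p = 0.149).

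The vitamin K cycle recycles vitamin K for the carboxylase that modifies prothrombin, factors VII and X, protein C and protein S. Of its list, which also holds other Gla proteins, 1 of 7 tested genes was lower and none higher, and all 7 had log2 fold changes below zero (median -0.12). VKORC1, the reductase that recycles vitamin K and the target of warfarin, had 3093, 2942 and 2981 normalized counts in shCHROME libraries, against 3640, 3845 and 3323 in EV libraries, a 1.2-fold fall (limma adjusted p = 0.0128). Its call was lost without shCHROME replicate c (limma adjusted p = 0.0593), EV replicate a (0.0542) or EV replicate b (0.0733). GGCX, the carboxylase itself, averaged 6269 ± 111 normalized counts in shCHROME cells and 6608 ± 282 in EV cells and was not called (limma adjusted p = 0.446).

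In the protein C system and other anticoagulants, 3 of 8 tested genes fell and 1 rose (median -0.18). C4BPA and C4BPB encode the chains of C4b-binding protein, which binds protein S in plasma. C4BPA had 1870, 1661 and 1759 normalized counts in shCHROME libraries, against 2635, 2618 and 2756 in EV libraries, a 1.51-fold fall (limma adjusted p = 7.79e-06). C4BPB fell 1.2-fold (limma adjusted p = 0.0203). That call was lost without shCHROME replicate b (limma adjusted p = 0.0722), shCHROME replicate c (0.0556), EV replicate b (0.0811) or EV replicate c (0.0864), with library totals (0.0506) and with the replicate block (0.0523). A2M, a broad protease inhibitor, had 196152, 199221 and 208009 normalized counts in shCHROME libraries, against 298268, 274064 and 293218 in EV libraries, a 1.43-fold fall (limma adjusted p = 6.88e-05).

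In fibrin formation and lysis, 1 of 8 tested genes fell and none was called higher (median -0.02). PLG, which encodes plasminogen, the precursor of the protease that dissolves fibrin, had 71.9, 64.1 and 42.5 normalized counts in shCHROME libraries, against 152, 189 and 169 in EV libraries. That was a 2.88-fold fall without overlap (limma adjusted p = 5.04e-05). The fibrinogen genes were not called: the log2 fold change was -0.05 for FGA, 0.16 for FGB and 0.01 for FGG, with limma adjusted p of 0.754, 0.183 and 0.969, and those of FGA and FGG turned sign in other settings.

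**Figure D5:**
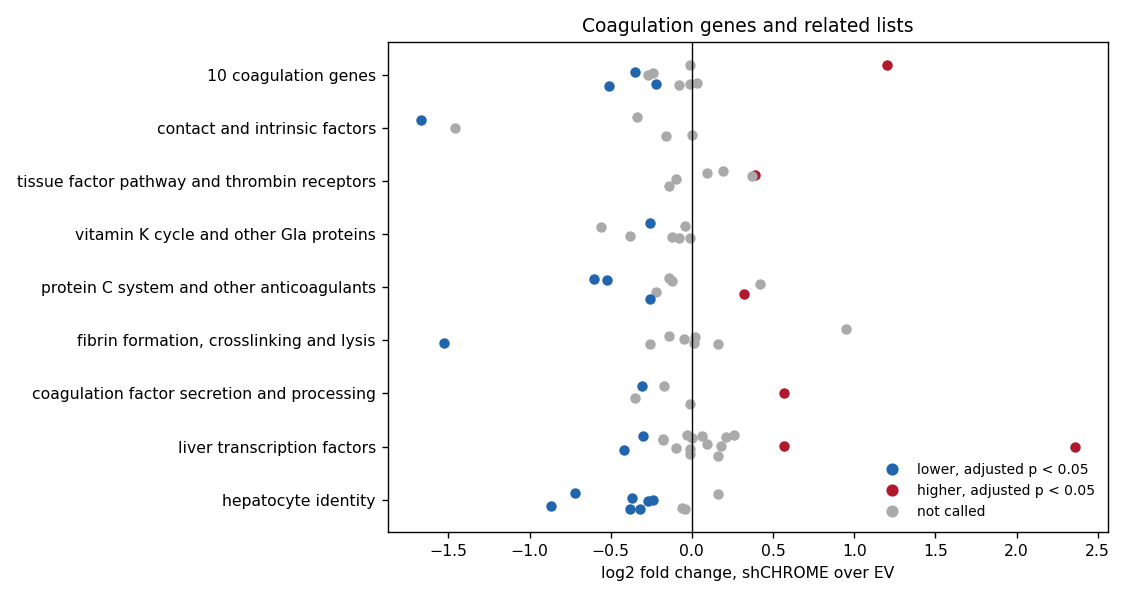
Log2 fold change, shCHROME over EV, of each tested gene of the 10 coagulation genes and 8 related lists, each point a gene (height within a row has no meaning); blue is lower, red is higher and grey is not called at an adjusted p under 0.05. KNG1 and PLG lie furthest left among blue points, at -1.67 and -1.53, and NR5A2, from few reads, furthest right at 2.36.

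For secretion and processing, 1 of 5 tested genes fell and 1 rose (median -0.17). LMAN1, the cargo receptor that carries factors V and VIII out of the endoplasmic reticulum, had 8909, 7778 and 8808 normalized counts in shCHROME libraries, against 10225, 10793 and 10601 in EV libraries, a 1.24-fold fall (limma adjusted p = 0.00232). FURIN, a protease that trims precursors in the secretory pathway, had 3114, 2983 and 2763 normalized counts in shCHROME libraries, against 2421, 1727 and 1874 in EV libraries, a 1.48-fold rise (limma adjusted p = 0.000599).

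Among 17 transcription factors of the liver, 2 fell and 2 rose (median 0.00). RXRA, a partner of nuclear receptors, fell 1.34-fold (limma adjusted p = 0.000158), and PPARA, a receptor of fatty acids, fell 1.23-fold (limma adjusted p = 0.00234). ONECUT1 rose 1.48-fold (limma adjusted p = 0.0228), and its call was lost without shCHROME replicate b (0.0727), shCHROME replicate c (0.136), EV replicate a (0.0922) or EV replicate b (0.0734). NR5A2 averaged 14.5 ± 4.08 normalized counts in shCHROME cells and 3.07 ± 3.56 in EV cells (SD, n = 3 each; limma adjusted p = 0.0269), and its call was lost without shCHROME replicate b (0.0615), shCHROME replicate c (0.14) or EV replicate b (0.0866). HNF4A averaged 6825 ± 447 normalized counts in shCHROME cells and 6957 ± 333 in EV cells and was not called (log2 fold change -0.03, 95% interval -0.16 to 0.10, limma adjusted p = 0.831), with a sign that turned under library totals. HNF4A, TFPI, GGCX and the fibrinogen genes were named after their values were seen.

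The label of the cells was checked against markers. All 10 hepatocyte genes were tested, and their summed normalized counts ran from 1221508 to 1421435 in shCHROME libraries and from 1515434 to 1634183 in EV libraries. Of these, 7 fell: ALB (1.25-fold), AFP (1.83-fold), TTR (1.65-fold), APOA1 (1.29-fold), SERPINA1 (1.2-fold), TF (1.18-fold) and HP (1.3-fold). APOB, AHSG and FGB were not called, with log2 fold changes of -0.04, -0.06 and 0.16. The median log2 fold change of the 10 genes was -0.29. The calls of SERPINA1, TF and HP were lost without shCHROME replicate c (limma adjusted p = 0.0512, 0.0586 and 0.0564), those of SERPINA1 and TF also without EV replicate c (0.054 and 0.0621), and that of ALB without EV replicate a (0.0714) or c (0.0826), with the replicate block (0.0572) and with no filter beyond 1 read (0.141). F10, SERPIND1 and PROS1 are liver secretory genes too, and any link of their falls to those of the 7 hepatocyte genes was not tested.

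Of 7 cholangiocyte and progenitor genes 5 were tested, and KRT19 (1.55-fold), SOX4 (1.53-fold) and SPP1 (1.4-fold) rose, with list sums of 18355 to 22048 normalized counts in shCHROME libraries and 15009 to 17089 in EV libraries. SOX9 and EPCAM were abundant and not called, with log2 fold changes of 0.01 and 0.05. KRT7 and CFTR had at most 15 reads over all libraries. Of 15 endothelial, stellate and blood cell genes 8 were tested, with sums of 8323 to 9493 normalized counts in shCHROME libraries and 7808 to 8075 in EV libraries. PDGFRB fell 1.98-fold and LYZ rose 1.22-fold, while DCN, GP9 and PF4 are listed at 0 and PTPRC had 2 reads in shCHROME cells and 1 in EV cells. VWF, ACTA2 and CD68 averaged 917, 1414 and 332 normalized counts in shCHROME cells and 1025, 1298 and 343 in EV cells. None of them was called, nor were PECAM1, CDH5 and CD14 at lower levels. The LYZ call was lost without shCHROME replicate a (limma adjusted p = 0.0583), shCHROME replicate c (0.0604) or EV replicate c (0.0533). Of 10 genes of the packaging cells 3 were tested, with sums of 2744 to 2915 normalized counts in shCHROME libraries and 3273 to 3440 in EV libraries. CDH2 fell 1.17-fold, a call lost without shCHROME replicate c (limma adjusted p = 0.0655), EV replicate a (0.0864) or EV replicate c (0.0559). PAX8 and HOXA10 were not called and averaged 33.1 and 110 normalized counts in shCHROME cells and 52.5 and 145 in EV cells. NEFL, NEFM and VIM are listed at 0, which here does not show a silent gene. The part of these lists in the results above was not tested.

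The recovered read totals ran from 29477352 to 33911426 in shCHROME libraries and from 29188213 to 35429420 in EV libraries. Each of the 10 genes had between 13 and 18719 reads in a library, the lowest for F13B in EV replicate c.

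Among 11274 genes averaging 100 normalized counts or more, those whose values followed F13B most closely over the 6 libraries were HAUS7 (Pearson r = 0.989), PIDD (0.985), SMAD2 (0.984), AIMP2 (0.983) and NFE2L3 (0.981). With 6 libraries in 2 groups, 158 genes had an r above 0.9, so the likeness is a description of shared differences between groups and libraries.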

How the data were processed

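Total RNA of 3 shCHROME and 3 EV libraries was prepared with an Illumina TruSeq RNA kit for paired 50-cycle HiSeq reads, per the labels' protocols. The submitters' processing notes name STAR 2.5, featureCounts 1.5.2, DESeq2 (given as 3.4) and hg19. The annotation and any use of strand are not given in the sources used here. The authors deposited normalized counts, a signal of reads divided by a size factor, beside their own fit (log2 fold change, p-value, adjusted p-value). Of 24656 rows, 1288 were repeats, which left 23368 genes. Dividing each library by its smallest step gave whole reads (within 0.01 reads) for 100% of values.

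Genes passing filterByExpr (edgeR 4.0.16, recovered reads) were tested by limma 3.58.1 with an intensity trend, two-sided, with group as the only term, on log2(value + 1). Adding 1 can make changes of low genes smaller than a lower pseudocount does. The log2 fold change of F13B was 1.20 on that scale and 1.24 with a pseudocount of 0.1. It was 1.17 with edgeR quasi-likelihood and 1.18 with DESeq2, so the main value of F13B was not below those of the count models. Adjustment was by Benjamini-Hochberg over 14598 genes. On simulated data for this comparison over 14598 genes, 50 genes drawn from all levels were changed at each size. Recovery was 24% for 1.2-fold changes, 72% for 1.5-fold, 86% for 2-fold and 94% for 4-fold changes, and 8 of 146 calls (5.48%) were false. Fewer genes were changed there than were called in these data, so the rates need not hold for the 10 genes. The 16 alternatives used edgeR quasi-likelihood or DESeq2 1.42.0 on the recovered reads, other scalings, other filters, a pseudocount of 0.1, replicate letters as a block, and 5 libraries in place of 6. The genes and lists were chosen with earlier results of these data known. Genes named were the 10 genes, every called gene of the lists, the nearest tested gene on each side, and the 5 genes most like the called gene with the largest change; exceptions are marked as such, and some genes that this rule names are left out. Promoters and microRNAs were matched by symbol in RefSeq (GRCh38.p14), while 3′ regions and exon lengths came from GENCODE release 29.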

Additional observations from a re-analysis of the deposited data

How the results depend on the processing

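Of the 10 coagulation genes, F10 and SERPIND1 kept their calls in all 16 alternatives, and the number called lower was 2 or 3 throughout. It was 2 with library totals, with the replicate block and without shCHROME replicate b, shCHROME replicate c, EV replicate a or EV replicate c, and without EV replicate b its 3 genes held F5 in place of PROS1. The number called higher ran from 0 to 1 when a library was left out. Over all genes, 532 were called higher and 1003 lower. The count higher was 936 with library totals and 349 with the replicate block, and 245 to 540 with a library left out; the count lower was 600 to 1056 with a library left out. Library totals moved the median of all tested genes to 0.058, against 0.009 in the main setting. Deviations of libraries with the same letter correlated at -0.047 (a), -0.091 (b) and 0.044 (c), and those with different letters at -0.083 to 0.129. With 3 libraries per group, these values cannot settle whether the letters pair the samples. With the replicate block, 2 coagulation genes were lower and 1 higher, and PROS1 had a limma adjusted p of 0.0686. Genes near zero turned sign without a call. F2 had a log2 fold change of 0.00885 with upper quartile scaling and 0.041 with library totals, and -0.055 to 0.038 with a library left out. SERPINC1 had 0.00788 and 0.04 under these scalings, and -0.103 to 0.064 with a library left out. HNF4A (0.021) and FGA (0.000928) turned sign with library totals; with a library left out, HNF4A ran from -0.08 to 0.011, FGA from -0.136 to 0.044, FGG from -0.063 to 0.078 and F11 from -0.000453 to 0.062. The cause was not tested in any of these. Of 27 called genes of the related lists, 15 kept their call in every alternative and 12 lost it in at least 1.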

Other observations

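The nearest tested genes on each side of the 10 coagulation genes, taken from the order of genes in the reference, mostly passed no test. MAP3K2, a kinase gene beside PROC, averaged 5252 ± 240 normalized counts in shCHROME cells and 5940 ± 108 in EV cells (SD, n = 3 each) and fell 1.13-fold (limma adjusted p = 0.0488). F10 lies between F7 and PROZ, the gene of protein Z; PROZ averaged 55.1 ± 21.6 normalized counts in shCHROME cells and 78.0 ± 6.83 in EV cells and was not called (limma adjusted p = 0.158), with a log2 fold change of -0.56. That value was -0.85 and called without shCHROME replicate c (limma adjusted p = 0.0442), and -0.30 without shCHROME replicate b (limma adjusted p = 0.471). Beside SERPIND1, PI4KA had a log2 fold change of 0.03 and SNAP29 of -0.17, neither called (limma adjusted p = 0.813 and 0.22). Beside F13B, CFHR2 and ASPM were not called (log2 fold changes 0.29 and 0.09), and beside F11, KLKB1 and FAT1 were not (0.00 and 0.01). HRG, a plasma protein gene of the fibrin list that was too low to test, had 12 reads in shCHROME cells and 50 in EV cells.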
